A study of Homo sapiens with 4 samples.

Results

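The YAP, TAZ and TEAD genes were examined in SK-N-BE(2), an established MYCN-amplified neuroblastoma cell line, after transfection with a short hairpin RNA against TTC8 (shTTC8, 2 libraries) or a scramble hairpin (shScb, 2 libraries). The 10 genes were YAP1, WWTR1, TEAD1, TEAD2, TEAD3, TEAD4, CCN1, CCN2, AMOTL2 and LATS2, taken by symbol from the 64252 gene IDs of a count table made by RNA sequencing. No expression threshold entered the choice, but it was made with earlier results of these data known. All cells were given a hairpin, and neither the hairpin sequence nor the number of hairpins or clones is given in the sources used here. Nothing in the labels states whether 2 libraries with the same hairpin are separate cultures, so each p-value reflects library-to-library spread that may be technical.

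YAP (encoded by YAP1) and TAZ (encoded by WWTR1) are transcriptional coactivators that do not bind DNA themselves and reach their target genes through the TEAD transcription factors. The Hippo kinases STK3 and STK4, with their adaptor SAV1, activate LATS1 and LATS2, which phosphorylate YAP and TAZ and keep them out of the nucleus. CCN1 and CCN2, which encode secreted matricellular proteins, are widely used readouts of this activity, while AMOTL2 and LATS2 are targets whose products restrain YAP and TAZ. In neuroblastoma the pair is known mainly from the mesenchymal-like cell state.

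TEAD factors recognise the core motif GGAATG. On the opposite strand the same site reads as CATTCC. The promoters that hold it are shown to place the target genes beside their measured levels. RefSeq promoter windows (GRCh38.p14, 250 bases before to 50 bases after a start) were matched for 7 of the 10 genes. Of their 10 windows, 4 held the motif on either strand, 1 for each of 4 genes. TEAD1, TEAD4 and CCN1 were not matched. Of 35116 promoter windows of this length, 14.0% held the motif and 44 held 3 or more. CCN2 had 3, beginning 169, 104 and 95 bases before the start, within chr6:131951373-131951622 on the minus strand. YAP1 had 1, beginning 162 bases before the start, within chr11:102110197-102110446 on the plus strand. AMOTL2 had 1 at its second start and LATS2 had 1 just after the RefSeq start of its window. The 30 bases around each are given, from chr3:134374499-134374528 and chr13:21061560-21061589 on the minus strand. By the gene position given further below, LATS2 starts at 21061547, so its printed stretch lies wholly before that start. Capitals mark the motif, and each sequence runs 5′ to 3′ on the gene's strand. A match is a description of the letters, not a measured binding site.
CCN2: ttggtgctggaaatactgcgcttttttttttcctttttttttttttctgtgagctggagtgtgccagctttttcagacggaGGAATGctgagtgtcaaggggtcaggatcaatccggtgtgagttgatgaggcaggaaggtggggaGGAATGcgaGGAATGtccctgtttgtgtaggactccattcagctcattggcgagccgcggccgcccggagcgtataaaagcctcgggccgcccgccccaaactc
YAP1: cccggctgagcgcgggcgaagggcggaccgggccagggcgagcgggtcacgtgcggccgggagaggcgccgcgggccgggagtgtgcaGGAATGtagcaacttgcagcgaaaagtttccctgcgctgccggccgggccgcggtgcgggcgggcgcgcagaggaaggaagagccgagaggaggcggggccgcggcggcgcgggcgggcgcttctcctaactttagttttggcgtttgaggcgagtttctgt
AMOTL2: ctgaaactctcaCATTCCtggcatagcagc
LATS2: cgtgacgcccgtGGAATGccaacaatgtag

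Gene counts summed to 38284663 and 40863047 in the shTTC8 libraries and to 51168727 and 55331449 in the shScb libraries. TTC8, the targeted gene, stood at 29.1 and 30.6 CPM in shTTC8, against 196 and 191 CPM in shScb (15.4% of the shScb level, edgeR adjusted p = 5.38e-12). CPM are counts scaled to an effective library of 1000000 counts. All 9 adrenergic neuroblastoma markers had counts, 7 of them lower and 1 higher in shTTC8. Over all tested genes 16.7% were lower and 15.2% higher, and of protein-coding genes 20.6% and 18.6%. The adrenergic markers summed to 6730 and 6885 CPM in shTTC8 and to 9317 and 9732 CPM in shScb. Endothelial and Schwann cell markers summed to at most 2.31 and 6.15 CPM in any library, and PECAM1, TEK and SOX10 had no count. In these bulk samples fewer cells of a type and less RNA per cell cannot be told apart.

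Of the coactivator pair, TAZ RNA was far more abundant than YAP RNA, and it fell in shTTC8. WWTR1 (ENSG00000018408, chromosome 3, 149517235 to 149736714, GRCh38, minus strand) had 11.7 and 11.3 CPM in shTTC8, against 22.6 and 22.02 CPM in shScb. Replicates differed by less than 1 CPM and the groups lay far apart. WWTR1 thus averaged 11.5 ± 0.341 CPM in shTTC8 and 22.3 ± 0.375 CPM in shScb (SD, n = 2 each), 51.6% of the shScb level (log2 fold change of shTTC8 over shScb -0.95, SE 0.10, edgeR adjusted p = 4.46e-06). The fold change ran from -0.99 to -0.91 over 14 alternative analyses and was called in all of them.

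YAP1 (ENSG00000137693, chromosome 11, 102110461 to 102233423, plus strand) had 8 and 4 counts in the shTTC8 libraries and 10 and 13 counts in the shScb libraries. These were 0.206 and 0.0966 CPM in shTTC8, and 0.198 and 0.239 CPM in shScb, so the groups overlapped. The summed counts gave 0.150 CPM in shTTC8 (exact Poisson 95% interval 0.0773 to 0.261) and 0.219 CPM in shScb (0.139 to 0.329). These intervals cover counting error only. YAP1 did not pass the low-count filter. In the fit without that filter its log2 fold change was -0.56 (SE 0.70, edgeR adjusted p = 0.683), so no difference was detectable at this depth. Per kilobase of merged exons, WWTR1 stood at 1.37 ± 0.0405 CPM in shTTC8 and 2.65 ± 0.0446 CPM in shScb, while YAP1 stood at 0.0240 ± 0.0123 and 0.0347 ± 0.00464 CPM in the same groups (SD, n = 2 each).

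**Figure D1:**
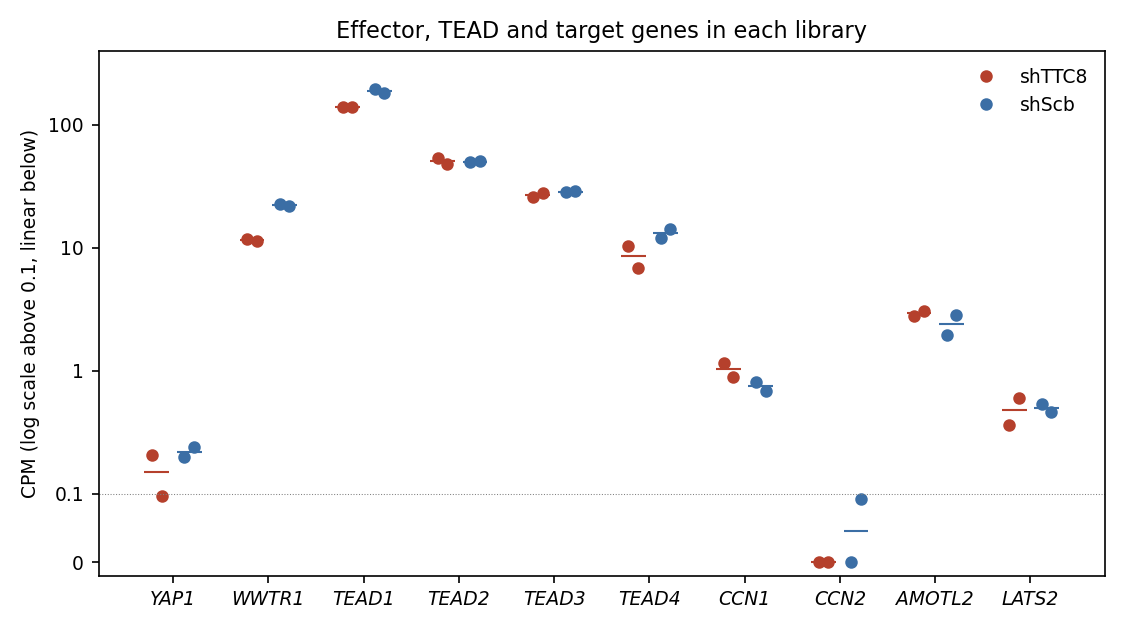
CPM of the 10 genes in each library (y axis, logarithmic above the dotted line at 0.1 and linear below), with shTTC8 left of shScb for each gene; points are libraries and short lines are group means (n = 2). The WWTR1, TEAD1, TEAD3 and TEAD4 groups are separate with shTTC8 lower, and the CCN1 groups with shTTC8 higher. Of all tested genes 65.5% have groups that do not overlap. YAP1 and the target genes CCN1, CCN2, AMOTL2 and LATS2 lie between 0 and 3.07 CPM in every library.

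Of the 4 TEAD genes, TEAD1 and TEAD4 fell, and TEAD2 and TEAD3 did not pass the test. TEAD1 (ENSG00000187079, chromosome 11, 12674591 to 12944483, plus strand), the broadly expressed founding member of the family, had 138 and 140 CPM in shTTC8, against 197 and 181 CPM in shScb. Both shTTC8 libraries lay below both shScb libraries. The means were 139 ± 1.32 CPM in shTTC8 and 189 ± 11.4 CPM in shScb (SD, n = 2 each; log2 fold change -0.44, SE 0.06, edgeR adjusted p = 8.26e-05). The TEAD1 call held in all 14 alternatives, between -0.50 and -0.35.

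TEAD4 (ENSG00000197905, chromosome 12, 2959330 to 3040673, plus strand), known from trophoblast and muscle development, had 10.3 and 6.84 CPM in shTTC8, against 12.05 and 14.2 CPM in shScb. The groups did not overlap, but the shTTC8 libraries differed from each other by more than the gap between the groups. Its means were 8.57 ± 2.45 CPM in shTTC8 and 13.1 ± 1.54 CPM in shScb (SD, n = 2 each; log2 fold change -0.62, SE 0.19, edgeR adjusted p = 0.0391). Without shTTC8 replicate 2 the fold change was -0.35 and the call was lost (edgeR adjusted p = 0.131), and without shTTC8 replicate 1 it was -0.94. Over all 14 alternatives the adjusted p ranged from 1.90e-05 to 0.131.

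TEAD2 (ENSG00000074219, chromosome 19, 49340595 to 49362457, minus strand), a family member prominent in embryonic and neural progenitor tissue, had 53.8 and 48.3 CPM in shTTC8, against 49.4 and 51.1 CPM in shScb. The groups overlapped, with a log2 fold change of 0.02 (95% interval -0.14 to 0.19, edgeR adjusted p = 0.865) whose sign changed in 4 alternatives. TEAD3 (ENSG00000007866, chromosome 6, 35473597 to 35497076, minus strand) had 25.7 and 27.7 CPM in shTTC8, against 28.3 and 28.8 CPM in shScb. Its shTTC8 libraries lay just below its shScb libraries, and the log2 fold change of -0.09 (95% interval -0.28 to 0.09) did not pass the test (edgeR adjusted p = 0.462). The lower ends of both intervals lie above the fold change of TEAD1, whose own 95% interval was -0.57 to -0.31. These intervals take no account of the GC content of the transcripts. With the GC offset given further below, TEAD1 stood at -0.35, TEAD2 at -0.08 and TEAD3 at -0.21.

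The paralogs were also compared through ratios within each library, of each TEAD gene called lower to each one not called. The log2 ratio of TEAD1 to TEAD2 CPM was 1.36 and 1.54 in shTTC8, against 1.99 and 1.82 in shScb, a difference of -0.46. For TEAD1 to TEAD3 the difference was -0.34, for TEAD4 to TEAD2 it was -0.66 and for TEAD4 to TEAD3 it was -0.55. The groups did not overlap in any of the 4 ratios. Because the pairs follow the calls above and share genes, this separation is not independent of those calls. Each exact two-sided permutation test gave p = 0.333 (0.333 after Benjamini-Hochberg adjustment over the 4 ratios). That is the smallest p that 2 libraries against 2 allow, so the test could not decide whether the paralogs moved apart.

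Per kilobase of merged exons, the summed TEAD level was 44.5 and 42.0 CPM in the shTTC8 libraries, against 50.3 and 50.4 CPM in the shScb libraries. TEAD2 took 39.6% ± 1.38 of this sum in shTTC8 and 33.5% ± 0.732 in shScb (SD, n = 2 each). TEAD1 took 31.4% ± 1.60 in shTTC8 and 36.5% ± 2.25 in shScb, TEAD3 took 20.3% ± 1.91 and 18.6% ± 0.189, and TEAD4 took 8.68% ± 2.13 and 11.5% ± 1.33 in the same order of groups. The order of TEAD1 and TEAD2 depends on which length is used. With the mean length of coding transcripts TEAD1 held 48.5% of the sum in shTTC8 and 53.6% in shScb, and TEAD2 held 29.8% and 24.0%. With either length the TEAD1 share was lower and the TEAD2 share higher in both shTTC8 libraries than in both shScb libraries. Shares of a sum depend on each other, so a share can rise without a rise of the gene itself. TEAD2 stood at 17.1 ± 1.31 CPM per kilobase of merged exons in shTTC8 and 16.9 ± 0.392 CPM in shScb (SD, n = 2 each).

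**Figure D2:**
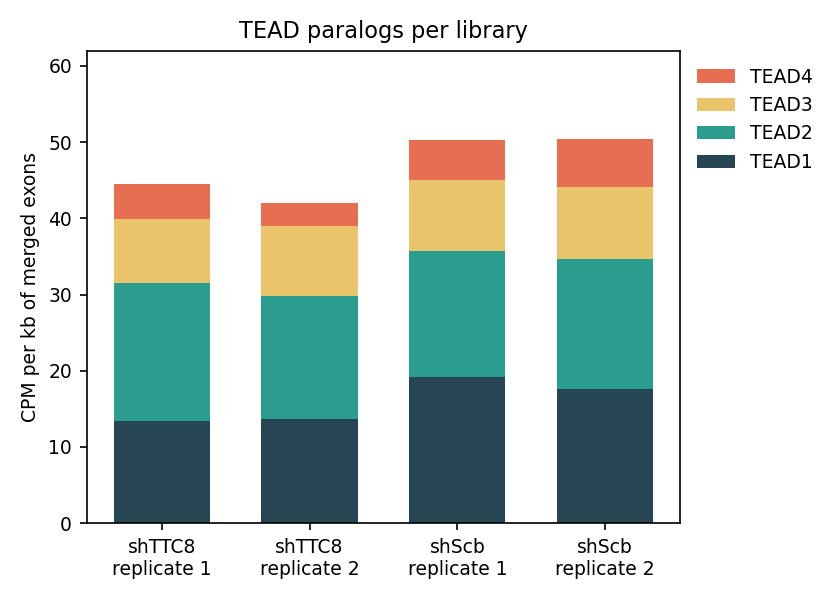
Level of the 4 TEAD genes in each library as CPM per kilobase of merged exons (y axis), stacked, with the shTTC8 libraries left of the shScb libraries. The stacks reach 44.5 and 42.0 in shTTC8 and 50.3 and 50.4 in shScb, and the TEAD1 and TEAD4 segments are shorter in shTTC8 while the TEAD2 and TEAD3 segments differ less.

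The target genes among the 10 were barely expressed, and none of them passed the test. CCN2 (ENSG00000118523, chromosome 6, 131948176 to 131951373, minus strand), whose promoter held the 3 motifs printed above, had no count in either shTTC8 library, against 0 and 5 counts in the shScb libraries. For the count of 0 over both shTTC8 libraries, the exact Poisson 95% interval reaches up to 0.0460 CPM. The 5 shScb counts, all in 1 library, correspond to 0.0477 CPM over the group (0.0155 to 0.111), so the intervals overlap. CCN2 did not pass the low-count filter, and the fit without it gave an edgeR adjusted p of 0.470.

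CCN1 (ENSG00000142871, chromosome 1, 85580761 to 85583962, plus strand) had 1.16 and 0.894 CPM in shTTC8, against 0.811 and 0.681 CPM in shScb. Its shTTC8 libraries were the higher ones without overlap, but the 37 to 45 counts per library left a wide interval for the log2 fold change of 0.46 (95% interval -0.31 to 1.23, edgeR adjusted p = 0.373). AMOTL2 (ENSG00000114019, chromosome 3, 134355874 to 134375479, minus strand), whose angiomotin-family protein holds YAP and TAZ at junctions, had 2.81 and 3.07 CPM in shTTC8, against 1.96 and 2.83 CPM in shScb. The AMOTL2 groups overlapped (log2 fold change 0.29, 95% interval -0.23 to 0.82, edgeR adjusted p = 0.407). LATS2 (ENSG00000150457, chromosome 13, 20973032 to 21061547, minus strand) had 0.360 and 0.604 CPM in shTTC8, against 0.534 and 0.460 CPM in shScb. Its groups overlapped as well, and its interval reached from -1.06 to 0.99 around a log2 fold change of -0.04 (edgeR adjusted p = 0.964). Changes of about 2-fold either way thus lie within or near that interval. The 4 target genes together summed to 4.33 and 4.57 CPM in shTTC8, and to 3.30 and 4.07 CPM in shScb.

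Per kilobase of merged exons, the order in shTTC8 was TEAD2 (17.1 ± 1.31 CPM), TEAD1 (13.5 ± 0.128), TEAD3 (8.78 ± 0.461), TEAD4 (3.77 ± 1.08), WWTR1, AMOTL2 (0.491 ± 0.0309), CCN1 (0.418 ± 0.0762), LATS2 (0.0864 ± 0.0309), YAP1 and CCN2 (SD, n = 2). In shScb the order was the same except that TEAD1 (18.4 ± 1.11 CPM) stood above TEAD2 (16.9 ± 0.392). The libraries of AMOTL2 and CCN1 overlapped in both groups and those of YAP1 and CCN2 overlapped in shScb. The other neighbours did not overlap in either group. Per kilobase of mean coding transcript length, TEAD1 stood first in both groups, and WWTR1 stood at 7.62 ± 0.226 CPM in shTTC8 and 14.8 ± 0.248 CPM in shScb (SD, n = 2 each). On that scale its shTTC8 libraries lay inside the range of TEAD4, and its shScb libraries lay above those of TEAD4 and TEAD3. The levels per merged exon use the length of all annotated exons, and the length of the transcripts present in the cells was not measured.

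Of the 8 genes that passed the low-count filter, 3 were lower and none was higher. Of all 19610 tested genes, 16.7% were lower (3284) and 15.2% were higher (2974), together 31.9%. Among protein-coding genes, which all 10 are, 20.6% were lower and 18.6% higher, together 39.2%. Calls followed depth, with 42.7% of genes with a mean of at least 200 counts called against 13.6% of those under 200, and each of the 3 target genes tested was under 200 counts in every library. The groups did not overlap for 5 of the 8 genes, against 65.5% of all tested genes. The median log2 fold change of the 8 was -0.07, against 0.004 over all tested genes. Without shTTC8 replicate 1 the number of genes called higher was 1880, and without shTTC8 replicate 2 the genes called lower among the 8 were WWTR1 and TEAD1.

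In the kinase cassette that acts on YAP and TAZ, 2 of the 6 genes other than LATS2 fell and none rose, all 6 being tested. Over all tested genes 16.7% were lower, and in the lowest of 5 equal bins of transcript GC content 26.8%, so this count is near the background. STK3, which encodes the kinase MST2, had 8.39 and 7.37 CPM in shTTC8, against 12.6 and 13.4 CPM in shScb (log2 fold change -0.73, SE 0.13, edgeR adjusted p = 4.56e-04). MOB1B, an activating subunit of the LATS kinases, averaged 27.9 ± 1.58 CPM in shTTC8 and 40.0 ± 3.97 CPM in shScb (SD, n = 2 each; log2 fold change -0.52, edgeR adjusted p = 5.40e-04). STK4, which encodes the sister kinase MST1, was at -0.14 on the log2 scale and MOB1A at -0.03. The adaptor gene SAV1 was at 0.06, and LATS1 averaged 36.4 ± 1.251 CPM in shTTC8 and 38.8 ± 6.10 CPM in shScb (SD, n = 2 each). MOB1B overlaps exons of a neighbour with 103% of its counts, and SAV1 one with 92.2%. Without shScb replicate 2, 4 of the 6 were called lower, with STK4 at -0.21 (edgeR adjusted p = 0.0352) and LATS1 at -0.24 (edgeR adjusted p = 0.0218). The median of the 6 was -0.11.

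VGLL4, whose product competes with YAP and TAZ for TEAD and represses their targets, fell to 52.8% of the shScb level. It had 61.3 and 57.4 CPM in shTTC8, against 115 and 110 CPM in shScb, without overlap (log2 fold change -0.92, SE 0.07, edgeR adjusted p = 1.24e-07). VGLL4 overlaps exons of an opposite-strand gene with 33.3% as many counts, and the library kit does not mark strand. VGLL1, VGLL2 and VGLL3, the other vestigial-like genes, had no count in any library.

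Upstream of the kinases, 5 of 22 tested genes rose and 8 fell, beside 15.2% higher and 16.7% lower over all tested genes (18.6% and 20.6% of protein-coding genes). The median log2 fold change of the 22 was -0.07. WWC2, which encodes a KIBRA-family scaffold that promotes LATS activation, had 17.9 and 18.5 CPM in shTTC8, against 45.0 and 43.3 CPM in shScb (log2 fold change -1.28, SE 0.08, edgeR adjusted p = 6.26e-08). FRMD6, the human counterpart of the fly Hippo regulator expanded, averaged 66.0 ± 3.09 CPM in shTTC8 and 136 ± 9.45 CPM in shScb (SD, n = 2 each; log2 fold change -1.04). The kinase gene MAP4K5 changed by -0.53 and the protocadherin gene DCHS1 by -0.32, while TAOK2, a kinase that activates STK3 and STK4, rose by 0.53 (edgeR adjusted p = 1.97e-05). MAP4K5 overlaps exons of a neighbour with 35.6% as many counts. NF2, which encodes the tumour suppressor merlin, had 47.1 and 50.6 CPM in shTTC8, against 44.7 and 42.3 CPM in shScb, and was not called (log2 fold change 0.17, edgeR adjusted p = 0.121). Of the angiomotin genes, AMOT changed by -0.30 (edgeR adjusted p = 0.0119), a call lost without shTTC8 replicate 2 (edgeR adjusted p = 0.152). AMOTL1 was by far the most expressed angiomotin at 249 and 244 CPM in shTTC8, against 280 and 269 CPM in shScb, and stood at -0.15 (edgeR adjusted p = 0.0599). AMOTL1 was called lower in 4 of the 14 alternatives, which were DESeq2 (adjusted p = 0.0144), the stricter low-count filter (edgeR adjusted p = 0.0450), the GC offset (0.0220) and the fit without shScb replicate 2 (0.0123). The number of upstream genes called higher was 3 without shScb replicate 1 and 2 without shTTC8 replicate 2.

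The STRIPAK phosphatase complex, which removes activating phosphate from STK3 and STK4, had 3 of 10 tested genes higher and 2 lower (median log2 fold change -0.03). Of protein-coding genes 39.2% were called, and of genes with a mean of at least 200 counts 42.7%, so this number of calls is near the background. STRN, a scaffold subunit, averaged 28.3 ± 0.445 CPM in shTTC8 and 50.2 ± 6.63 CPM in shScb (SD, n = 2 each; log2 fold change -0.83, edgeR adjusted p = 1.08e-05). The catalytic subunit gene PPP2CA changed by -0.43, and the phosphatase scaffold gene PPP2R1A rose by 0.29. STRN4 rose by 0.40 and STRN3 by 0.25. STRN4 overlaps exons of a neighbour with 20.6% as many counts, and STRN3 one with 62.04%. The STRN3 call was lost in 6 of the 14 alternatives.

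**Figure D3:**
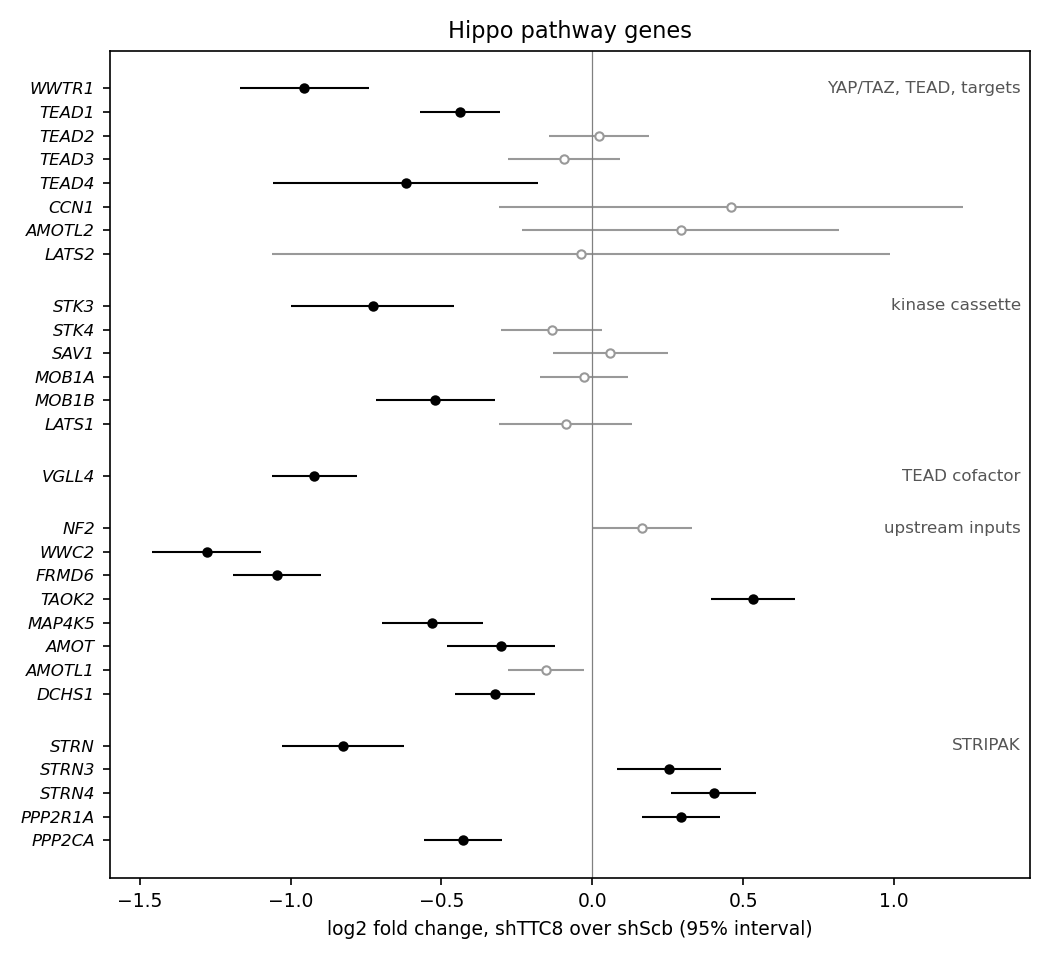
Log2 fold change of shTTC8 over shScb (x axis) with its 95% interval for the tested YAP/TAZ, TEAD and target genes and for the named kinase, cofactor, upstream and STRIPAK genes; filled points passed the edgeR threshold and open points did not. WWTR1, VGLL4, FRMD6 and WWC2 lie near or below -0.9, while the intervals of CCN1, AMOTL2 and LATS2 span 0 widely.

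A list of 18 other genes described as YAP/TAZ targets held more falls than rises: of 16 tested, 9 fell and 2 rose, with a median log2 fold change of -0.57 against 0.004 over all tested genes. Over all tested genes 16.7% were lower and 15.2% higher, and of protein-coding genes 20.6% and 18.6%. The number called lower depended on the analysis. It was 6 with DESeq2, with a non-robust fit and without a low-count filter, and 7 with limma-voom and with unscaled library sizes. In the other alternatives that kept all libraries it was 8 or 9. The list was compiled from memory of a published signature, with earlier results of these data known. It may differ from that signature in single members, such as GADD45B. NT5E, which encodes the ectonucleotidase CD73, had 160 and 175 CPM in shTTC8, against 369 and 336 CPM in shScb (log2 fold change -1.08, SE 0.07, edgeR adjusted p = 4.10e-08). The RNA-binding protein gene RBMS3 averaged 52.9 ± 0.704 CPM in shTTC8 and 89.5 ± 7.97 CPM in shScb, and the matrix protein gene CCDC80 averaged 101 ± 2.57 and 141 ± 3.05 CPM in the same groups (SD, n = 2 each). ARHGEF17 went the other way at 144 and 143 CPM in shTTC8, against 104 and 109 CPM in shScb (log2 fold change 0.43, edgeR adjusted p = 6.93e-05).

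Several classical targets were low. TGFB2, a TGF-beta ligand, averaged 0.914 ± 0.200 CPM in shTTC8 and 2.52 ± 0.547 CPM in shScb (SD, n = 2 each; log2 fold change -1.46, edgeR adjusted p = 0.00153), and F3, tissue factor, had 0.927 and 0.991 CPM in shTTC8, against 2.16 and 2.32 CPM in shScb (edgeR adjusted p = 0.00346). AXL, a receptor tyrosine kinase, had 0.566 and 0.701 CPM in shTTC8, against 1.17 and 1.31 CPM in shScb. Its edgeR adjusted p of 0.0475 rose above 0.05 in 9 of the 14 alternatives, among them each of the 4 that left out 1 library. ANKRD1, whose promoter window held 2 copies of the TEAD motif, had 0 and 8 counts in the shTTC8 libraries and 10 and 5 counts in the shScb libraries and did not pass the filter, and FOXF2 had no count. PTPN14, a phosphatase that binds YAP, overlapped between the groups. Without shTTC8 replicate 1 only 1 of the 16 was called higher.

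Of 7 fibroblast markers, all 6 that were tested were lower in shTTC8, beside 16.7% of all tested genes and 20.6% of protein-coding genes. The list summed to 236 and 226 CPM in shTTC8, against 494 and 475 CPM in shScb. The median log2 fold change of the 6 was -1.24. DCN, which encodes the matrix proteoglycan decorin, stood at 10.4% of the shScb level, LUM (lumican) at 16.1% and COL1A1, a collagen gene, at 23.8%. PDGFRB, a growth factor receptor gene, stood at 75.3%, and COL1A2 had no count in shTTC8, against 7 and 5 counts in shScb. Whether the changes of these markers and those of the YAP/TAZ target genes, which went both ways, are linked was not tested.

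**Figure D4:**
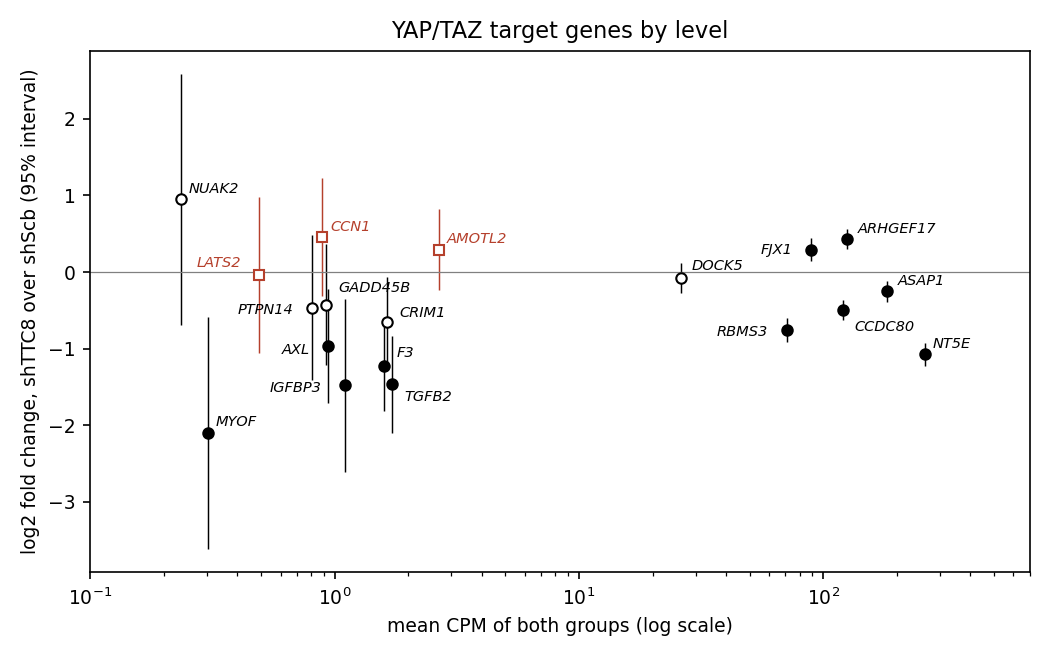
Log2 fold change of shTTC8 over shScb (y axis, with 95% interval) against the mean CPM of both groups (x axis, log scale) for the 16 tested other target genes (circles) and for CCN1, AMOTL2 and LATS2 (red squares); filled symbols passed the edgeR threshold. The red squares sit below 3 CPM with intervals that span 0, and NT5E, RBMS3 and CCDC80 sit above 50 CPM with narrow intervals below 0.

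Fold changes followed the GC content of the transcripts across all genes. Across 18310 tested genes with a GC value the Spearman correlation of log2 fold change with GC was 0.211 (across genes, which are not independent replicates), and the median log2 fold change was -0.13 in the lowest of 5 equal GC bins and 0.13 in the highest. WWTR1 has 49.0% GC, TEAD1 42.8% and TEAD4 62.7%, whereas the kinase cassette has a median of 40.4%. TEAD2 has 58.3% GC and TEAD3 60.3%, both above TEAD1, and the TEAD ratios and shares above were not adjusted for GC. With an offset for GC content, chosen after seeing the data, WWTR1 was at -0.94 (edgeR adjusted p = 1.42e-05), TEAD1 at -0.35 (8.80e-05) and TEAD4 at -0.74 (0.0104). TEAD2 and TEAD3 were then at -0.08 and -0.21 and remained uncalled (edgeR adjusted p = 0.378 and 0.0651). STK3 was at -0.58 and MOB1B at -0.36 with the offset, and both stayed past the threshold (edgeR adjusted p = 0.00452 and 0.00263).

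**Figure D5:**
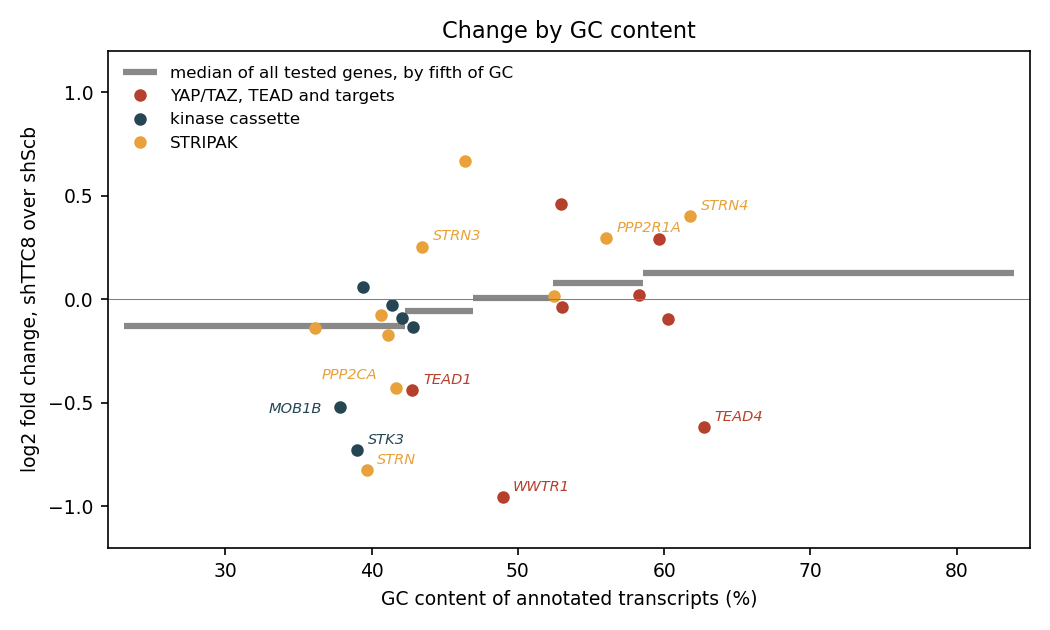
Log2 fold change of shTTC8 over shScb (y axis) against the GC percentage of annotated transcripts (x axis) for the tested YAP/TAZ, TEAD and target genes, the kinase cassette and the STRIPAK complex; grey bars give the median of all tested genes in each of 5 equal GC bins and called genes are named. The grey bars climb from -0.13 to 0.13, and WWTR1, TEAD1 and TEAD4 lie below the bar of their own bin.

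The genes whose profile over the 4 libraries was most like that of TEAD1 were NIPA1, LRFN1 and TOP2A. Their centred log2 CPM differed from that of TEAD1 by a root mean square of 0.0083, 0.0087 and 0.011, among 11313 candidates with a symbol and a mean of at least 5 CPM. TOP2A, the DNA topoisomerase of dividing cells, averaged 374 CPM in shTTC8 and 508 CPM in shScb. For AMOTL2, the target gene with most counts, the nearest were ZNF596, WASH8P and CYTH2, at 0.050, 0.060 and 0.064. The likeness is a description over 4 libraries of 2 groups.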

How the data were processed

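Total RNA was extracted with TRIzol and made into libraries with an Illumina TruSeq RNA kit, per the labels' protocols. The submitters' processing notes name HISAT2 2.2.0 and build hg38; no source used here names the counter or its annotation. The authors deposited raw, unnormalized counts by Ensembl gene ID for 2 shTTC8 and 2 shScb libraries. Symbols came from a gene name table, and positions, exons and GC content from GENCODE 29 on GRCh38, which is hg38. Between 0% and 8.98% of the 50-base words in a member's transcripts also occur in other genes.

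Fold changes came from edgeR 4.0.16 under R 4.3.3, using filterByExpr defaults, TMM scaling and the robust quasi-likelihood F test, two-sided, and p-values were Benjamini-Hochberg adjusted over the 19610 genes tested (threshold 0.05). CPM use TMM-scaled library sizes, and standard errors are the fold change over the square root of F. The test was also run on simulated counts as a check of the code. Other settings tried were DESeq2 1.42.0, limma-voom (limma 3.58.1), a fit that was not robust, RLE size factors, unscaled library sizes, no low-count filter, a filter of 1 CPM in at least 2 libraries, a block for replicate number, leaving out each library, thinning to the shallowest library and, added after seeing the data, a GC offset (lowess span 0.3).

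The members and the 12 gene lists were chosen with earlier results of these data known. Named were TTC8, all members, all genes of the kinase, vestigial-like and CCN lists, up to 5 called genes by smallest p of the other pathway lists, and a fixed set (SRF, NF2, AMOT, AMOTL1, ANKRD1, AXL, F3, VCL, PTPN14). Cell type markers are named as needed to describe their lists. Exon overlaps are given for named genes where the neighbour's counts reach 10% of the gene's own. Replicates of a group differed beyond sampling noise (chi-square per degree of freedom 6.40 in shTTC8 and 11.4 in shScb).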

Additional observations from a re-analysis of the deposited data

How the results depend on the processing

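Of the 44 named genes tested, 30 were called, and 26 of these were called in every alternative that tested them; the exceptions were TEAD4, AMOT, STRN3 and AXL. Genes called higher ranged from 1880 to 3395 when 1 library was left out, kinase cassette genes called lower from 2 to 4, upstream genes called higher from 2 to 5 and other YAP/TAZ targets called higher from 1 to 2. Upstream genes called higher numbered 2 without a low-count filter and 3 each with DESeq2, limma-voom, non-robust fitting and the GC offset, against 5. Other YAP/TAZ targets called lower ranged from 6 to 9 over the alternatives that kept all libraries, against 9. With coding transcript length, TEAD shares in shTTC8 and shScb moved to 48.5% and 53.6% (TEAD1), 29.8% and 24.0% (TEAD2) and 12.6% and 10.97% (TEAD3). Sign changes occurred in genes that were not called: TEAD2 (-0.0044 without a filter, -0.078 with the GC offset, -0.060 to 0.10 leaving out 1 library), LATS2 (0.0027 by library size alone, -0.46 to 0.28), MOB1A (0.014 by library size alone, 0.089 with the GC offset, -0.089 to 0.033), LATS1 (0.019 with the GC offset, -0.24 to 0.079) and PTPN14 (-0.96 to 0.30). The causes were not tested. The replicate numbers share no stated origin (correlation of same-numbered deviations 0.03). With the replicate number as a block 3092 genes were called higher and 3343 lower, and the same number of members (3 lower, 0 higher). Among the members, YAP1, CCN2 and LATS2 had at most 27 counts in any library, which limits their precision.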

Other observations

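CCN1 and CCN2 are also targets of SRF, the serum response factor, which acts with the MRTF coactivators on cytoskeletal genes. Of 11 tested genes of a list of SRF, its coactivators and their targets, 4 were higher and 2 lower in shTTC8 (median log2 fold change 0.12), beside 15.2% higher and 16.7% lower over all tested genes. The 4 were SRF, the coactivator gene MRTFA (named after its value was seen) and the targets ACTA2 and TPM1, so 2 targets rose and 2 fell. SRF itself had 68.2 and 62.5 CPM in shTTC8, against 45.8 and 46.9 CPM in shScb (log2 fold change 0.50, SE 0.07, edgeR adjusted p = 1.15e-04). TPM1, a tropomyosin gene, averaged 56.3 ± 1.66 CPM in shTTC8 and 29.5 ± 1.05 CPM in shScb (SD, n = 2 each; log2 fold change 0.93). ACTA2, smooth muscle actin, had 3.84 and 3.82 CPM in shTTC8, against 1.504 and 1.12 CPM in shScb (edgeR adjusted p = 2.26e-04), and overlaps exons of a neighbour with 11.7% as many counts. The focal adhesion gene VCL (vinculin) and the LIM-domain gene FHL2 went the other way, at -0.46 and -0.71 on the log2 scale. VCL overlaps exons of a neighbour with 129% as many counts, and MRTFA shares 9 exonic bases with one that has 307.5% as many.

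The other CCN genes were as low as CCN1 and CCN2. CCN3 had 0.386 and 0.580 CPM in shTTC8, against 0.218 and 0.368 CPM in shScb, and was not called (edgeR adjusted p = 0.354). CCN4 had no count in any library, and CCN5 had no count in shTTC8, against 7 and 5 counts in shScb. CCN6 had 7 and 1 counts in shTTC8, against 16 and 22 counts in shScb (log2 fold change -1.82, edgeR adjusted p = 0.0906). It was called without shTTC8 replicate 1 (-3.77, edgeR adjusted p = 0.0383) and stood at -0.99 without shTTC8 replicate 2 (edgeR adjusted p = 0.469), and it overlaps exons of a neighbour with many times its counts.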
